A study of Mus musculus with 9 samples.

Results

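CDK inhibitor and quiescence genes were followed in NIH 3T3, an established line of mouse fibroblasts whose cells rest without serum and re-enter the cell cycle when serum returns. The 9 genes are Cdkn1b, the 4 INK4 genes Cdkn2a, Cdkn2b, Cdkn2c and Cdkn2d, the pocket protein gene Rbl2, the growth arrest gene Gas1, and the antiproliferative genes Btg1 and Tob1. They were chosen by name, with earlier results of these data known. Each is represented by its probe set with a single gene symbol and, where a gene has several, the one with the highest mean. All 9 of 9 were found among the 19935 genes measured.

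Net shRNA cells stably expressed an shRNA against Net (gene Elk3), Sap-1 shRNA cells one against Sap-1 (gene Elk4), and control cells carried the pLKO.1 vector. Net and Sap-1 are ETS-domain ternary complex factors, which bind DNA beside serum response factor. All cells attached to fibronectin for 2 hours, were starved of serum overnight and received bovine serum for 1 hour. The serum is 10% in the growth and treatment notes, and 20% in the text on the series. There were 3 biological replicates per group, each on 1 Affymetrix Mouse Gene 1.0 ST array. The labels do not say whether a line is a clone or a pool, nor how many shRNA sequences were used, so if each group is 1 line, p-values cover the spread within lines only. No array was taken before serum, so the response to serum was not measured.

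Cells leave quiescence when cyclin D with CDK4 or CDK6, and then cyclin E with CDK2, phosphorylate the pocket proteins and free the E2F factors. The INK4 proteins p16 (Cdkn2a), p15 (Cdkn2b), p18 (Cdkn2c) and p19 (Cdkn2d) bind CDK4 and CDK6 and keep D cyclins away, and Cdkn2a also encodes ARF, which acts on p53 through MDM2. The Cdkn1b product p27 binds cyclin-CDK complexes, above all those with CDK2. The Rbl2 product p130 is the pocket protein that holds cell cycle promoters silent in resting cells as part of the DREAM complex. GAS1, a cell surface protein found through its RNA in starved NIH 3T3 cells, blocks entry into S phase when overexpressed and is a Hedgehog co-receptor, and BTG1 and TOB1 slow growth and recruit the CCR4-NOT deadenylase to messenger RNAs.

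The start-site windows of Cdkn2c, Gas1 and Tob1, which differed most between the lines, are shown because ternary complex factors and E2F act at promoters, with Btg1 as the steady relative of Tob1 and Cdkn2b as the window with an ETS match. Each runs from 250 bases before to 50 bases after a RefSeq transcription start on build GRCm38.p6, 5′ to 3′ on the gene's strand. Capitals mark matches, on either strand, to CGGAAG (an ETS site), TTTCCCGC or TTTGGCGC (E2F sites), TATAAA and CCAAT. The CArG box, which serum response factor binds, was searched for as well.
Cdkn2c, window 1, chr4:109665323-109665622, minus strand: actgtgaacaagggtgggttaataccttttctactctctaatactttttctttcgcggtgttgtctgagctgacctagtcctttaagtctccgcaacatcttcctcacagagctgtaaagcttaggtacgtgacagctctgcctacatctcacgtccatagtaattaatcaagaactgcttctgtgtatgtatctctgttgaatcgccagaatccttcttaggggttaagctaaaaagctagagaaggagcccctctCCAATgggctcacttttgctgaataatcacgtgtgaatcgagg
Cdkn2c, window 2, chr4:109666707-109667006, minus strand: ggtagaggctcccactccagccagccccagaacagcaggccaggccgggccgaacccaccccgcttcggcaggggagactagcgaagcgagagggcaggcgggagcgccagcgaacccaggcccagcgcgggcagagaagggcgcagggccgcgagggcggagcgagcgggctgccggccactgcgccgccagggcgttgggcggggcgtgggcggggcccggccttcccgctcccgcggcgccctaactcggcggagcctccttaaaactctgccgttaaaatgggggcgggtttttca
Gas1, chr13:60177486-60177785, minus strand: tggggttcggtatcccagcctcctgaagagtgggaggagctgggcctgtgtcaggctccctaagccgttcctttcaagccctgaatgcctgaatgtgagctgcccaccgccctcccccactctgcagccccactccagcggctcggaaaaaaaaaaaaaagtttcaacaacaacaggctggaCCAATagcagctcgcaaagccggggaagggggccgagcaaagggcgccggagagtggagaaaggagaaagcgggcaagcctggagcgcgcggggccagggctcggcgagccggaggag
Tob1, chr11:94211204-94211503, plus strand: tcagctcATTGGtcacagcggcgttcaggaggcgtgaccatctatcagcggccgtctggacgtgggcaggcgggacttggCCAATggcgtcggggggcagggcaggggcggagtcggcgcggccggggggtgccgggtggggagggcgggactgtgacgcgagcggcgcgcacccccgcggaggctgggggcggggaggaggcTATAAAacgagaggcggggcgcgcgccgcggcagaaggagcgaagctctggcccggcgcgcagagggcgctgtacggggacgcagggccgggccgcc
Btg1, chr10:96616751-96617050, plus strand: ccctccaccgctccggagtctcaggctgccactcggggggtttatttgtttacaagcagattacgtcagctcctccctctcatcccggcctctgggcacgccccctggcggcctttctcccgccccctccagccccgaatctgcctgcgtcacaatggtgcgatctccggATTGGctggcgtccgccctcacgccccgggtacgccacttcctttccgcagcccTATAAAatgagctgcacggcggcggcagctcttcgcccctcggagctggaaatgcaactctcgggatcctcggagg
Cdkn2b, chr4:89310983-89311282, minus strand: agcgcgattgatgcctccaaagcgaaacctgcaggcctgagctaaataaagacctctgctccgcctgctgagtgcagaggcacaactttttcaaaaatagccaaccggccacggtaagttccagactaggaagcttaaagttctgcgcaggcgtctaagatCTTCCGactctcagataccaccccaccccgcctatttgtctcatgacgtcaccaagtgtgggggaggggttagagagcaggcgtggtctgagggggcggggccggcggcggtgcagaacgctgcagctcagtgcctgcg

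The RefSeq table held 11 windows for the 9 genes, with 2 starts each for Cdkn2a and Cdkn2c. The ETS letters were found in 1 of the 11 windows, that of Cdkn2b, where the match began at position -89 from the start, and 16.9% of all 32851 windows in the table held them. No window of the 9 genes held a CArG box, which 1.6% of all windows held, and 1 window of Cdkn2a held an E2F match, also at 1.6% of all windows. TATAAA stood in 2 of the 11 windows, those of Btg1 at -26 and Tob1 at -47, against 13.6% of all windows, and CCAAT in 7 of 11, against 37.4%. The matches share no bases with each other. They are letters in a window, and these arrays do not measure binding.

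The arrays were checked with the targeted genes. Elk3 stood at 11.08 ± 0.02 with Net shRNA, 11.38 ± 0.01 with Sap-1 shRNA and 11.51 ± 0.02 in control cells (log2 level, SD, n = 3 each). Elk4 stood at 10.63 ± 0.04 with Net shRNA, 9.53 ± 0.02 with Sap-1 shRNA and 11.07 ± 0.05 in control cells. Both targeted genes were thus lower in both lines than in control, so neither line lowered its own target's RNA alone. In Net shRNA cells Elk3 fell by 0.42 and Elk4 by 0.44. In Sap-1 shRNA cells Elk4 fell by 1.54 and Elk3 by 0.12. Fibroblast markers were bright, with all 12 of 12 above the 95th percentile of a background of 1193 olfactory and vomeronasal receptor genes and array medians of 12.73 to 12.77 in Net shRNA, 12.49 to 12.52 in Sap-1 shRNA and 12.81 to 12.83 in control cells. Of these markers 4 were lower with Net shRNA and 5 with Sap-1 shRNA than in control, and 0 were higher in either. Of all genes 10.2% were lower with Net shRNA and 13.9% with Sap-1 shRNA. Above that percentile were also 4 of 8 macrophage, 5 of 8 epithelial, 5 of 8 endothelial, 6 of 8 skeletal muscle and 3 of 8 adipocyte markers, with array medians of these lists between 6.10 and 7.45. Array medians ran from 7.47 to 7.54, and arrays have no read depth, so their number limits the precision.

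Cdkn2c, Gas1, Tob1 and, at a dim signal, Cdkn2d were the genes of the 9 that differed between cell lines, and Cdkn2c went opposite ways in them. In Net shRNA cells Cdkn2c and Tob1 rose relative to control. In Sap-1 shRNA cells Tob1 and Cdkn2d rose and Cdkn2c and Gas1 fell. No comparison of the 3 called Cdkn1b, Cdkn2a, Cdkn2b, Rbl2 or Btg1. Called means a limma p under 0.05 after adjustment over all 19935 genes. Changes are on the log2 scale, where 0.585 equals 1.5-fold, and bulk RNA cannot tell a shift in the share of cells in a cycle phase from a shift in RNA per cell.

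**Figure D1:**
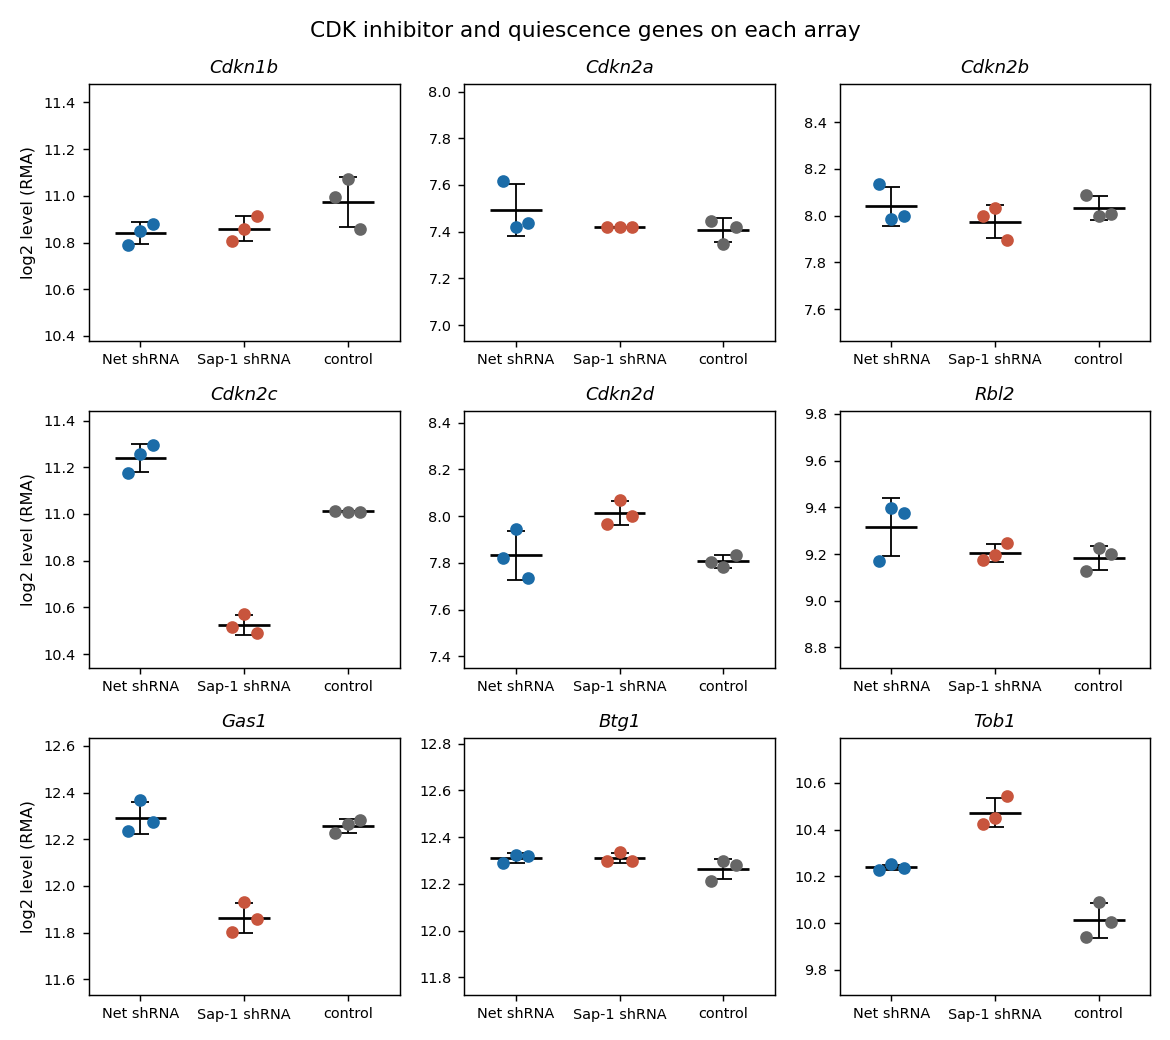
Log2 RMA level of each of the 9 genes on every array (points, 3 per group) with group mean (bar) and SD (whiskers), every panel spanning the same height. Cdkn2c is highest in Net shRNA and lowest in Sap-1 shRNA cells, Gas1 is low in Sap-1 shRNA cells and Tob1 is low in control cells.

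By count, 2 of the 9 genes were higher in Net shRNA than in control cells and 0 were lower by limma, where 13.4% of all genes were called higher, 10.2% lower and 23.6% either way. At an unadjusted p under 0.05 the count was 3, the third being Cdkn1b. The share called, 22.2%, lies near that of all genes, and the count says nothing particular about these 9. Arrays of the groups did not overlap for 2 of the 9 genes, against 34.3% of all genes. In Sap-1 shRNA cells 2 were higher and 2 lower than in control, where 15.8% of all genes were higher, 13.9% lower and 29.7% either way, and 4 had no overlap, against 41% of all genes. Between the knockdown lines 2 were higher in Net shRNA and 2 higher in Sap-1 shRNA cells, against 14.2% and 13.3% of all genes and 27.5% either way, and 4 had no overlap, against 37.4%. The comparisons with control share the 3 control arrays. The median change of the 9 genes was 0.05 with Net shRNA and 0.02 with Sap-1 shRNA against control, beside -0.002 and -0.02 over all genes.

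**Figure D2:**
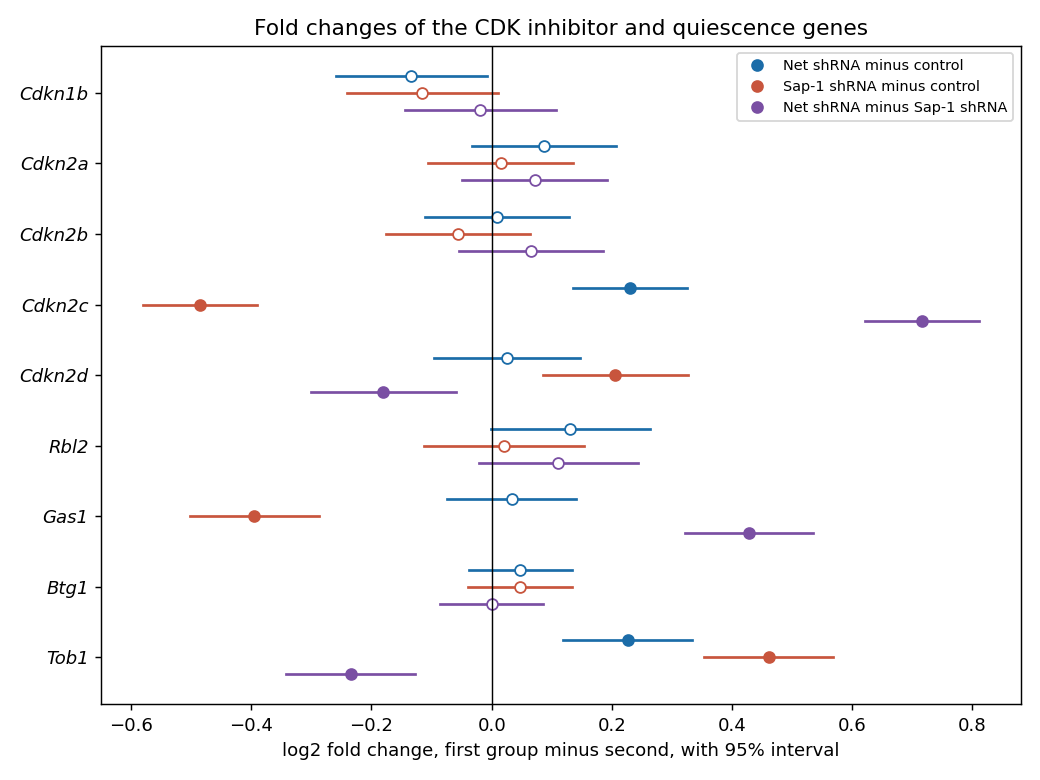
Log2 fold change of each gene (circle) with its 95% interval (line) in Net shRNA minus control, Sap-1 shRNA minus control and Net shRNA minus Sap-1 shRNA cells; filled circles passed limma at an adjusted p under 0.05. The interval of Cdkn2c lies above 0 in Net shRNA cells and below 0 in Sap-1 shRNA cells.

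Among the INK4 genes, Cdkn2c had the widest range over the arrays, 0.80, from 10.49 to 11.29. Its log2 level was 11.18, 11.25 and 11.29 on the Net shRNA arrays, 10.52, 10.57 and 10.49 on the Sap-1 shRNA arrays and 11.01 on each of the 3 control arrays. The 3 groups did not overlap. Cdkn2c rose by 0.23 in Net shRNA cells (SE 0.04, adjusted p = 0.00232), a 1.17-fold difference from control, and fell by 0.49 in Sap-1 shRNA cells (SE 0.04, adjusted p = 7.21e-06), a level 0.714 times that of control. The direct difference, Net shRNA minus Sap-1 shRNA, was 0.72 (SE 0.04, adjusted p = 3.02e-07), or 1.64-fold, and 3.3% of all genes differed more between these lines.

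The chromosomal surroundings of Cdkn2c went the other way in Sap-1 shRNA cells. The median of its 50 nearest expressed genes lay 0.07 above control in Net shRNA and 0.13 above control in Sap-1 shRNA cells. With that median taken off, the change of Cdkn2c was 0.16 with Net shRNA and -0.62 with Sap-1 shRNA, and both remained called (adjusted p = 0.0199 and 1.21e-06).

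Cdkn2d, whose product also binds CDK4 and CDK6, stood close to the median of all genes. Its mean of 7.88 lay between those of Cdkn2a (7.44) and Cdkn2b (8.01), so its changes are small differences at a dim signal. Its level was 7.82, 7.94 and 7.73 on the Net shRNA arrays, 7.97, 8.07 and 8.002 on the Sap-1 shRNA arrays and 7.80, 7.78 and 7.83 on the control arrays. Every Sap-1 shRNA array was above every other array, while Net shRNA and control arrays overlapped. The rise in Sap-1 shRNA cells was 0.21 (SE 0.05, adjusted p = 0.0142), or 1.15-fold. Net shRNA minus Sap-1 shRNA gave -0.18 (SE 0.05, adjusted p = 0.0295), and Net shRNA minus control 0.03 (95% interval -0.10 to 0.15, adjusted p = 0.818).

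The call of Cdkn2d depended on single arrays. It was lost against control without Sap-1 shRNA replicate 2 (0.18, adjusted p = 0.0629) or control replicate 2 (0.19, adjusted p = 0.0508). Between the knockdown lines it was lost without Net shRNA replicate 1 or 3 or Sap-1 shRNA replicate 2 or 3 (-0.19 to -0.13, adjusted p = 0.0625 to 0.117).

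Cdkn2a and Cdkn2b, neighbours on chromosome 4, gave dim and nearly flat signals. NIH 3T3 cells are known to have lost the Ink4a/Arf locus. The Cdkn2a level was 7.62, 7.42 and 7.44 in Net shRNA, 7.42 on each of the 3 Sap-1 shRNA arrays, and 7.45, 7.35 and 7.42 in control cells. The same value to 4 decimals stood on 5 of the 9 arrays. Any repeated value, a looser measure, occurred for 47.9% of all genes, for 70.3% of genes below the median level and for 5 of the 9 members. How many genes shared a value on 5 arrays was not counted. Cdkn2b lay at 8.13, 7.99 and 7.996 on the Net shRNA arrays, 7.996, 8.03 and 7.90 on the Sap-1 shRNA arrays and 8.09, 7.996 and 8.01 on the control arrays.

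The groups overlapped for Cdkn2a and for Cdkn2b in all 3 comparisons. Against control Cdkn2a differed by 0.09 in Net shRNA cells (95% interval -0.03 to 0.21) and by 0.02 in Sap-1 shRNA cells (-0.11 to 0.14). Cdkn2b differed by 0.01 (-0.11 to 0.13) and by -0.06 (-0.18 to 0.06) in the same order (adjusted p = 0.326 to 0.946 over these 4 tests).

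The table holds no detection calls, so signal was set beside the receptor genes, which fibroblasts are not known to use. The mean of Cdkn2a lay above 44.8% of all genes and 22 of the 1193 receptor genes were brighter, a share of 1.84%. For Cdkn2b these values were 52.6% of all genes and 5 receptor genes, and for Cdkn2d 51.0% and 6. Probe sets differ in affinity and base composition, so these places describe signal and do not rank RNA amounts. Whether the signal of Cdkn2a comes from Cdkn2a RNA was not tested, and a place above most receptor genes does not by itself show expression.

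Next to Cdkn2a, Mtap, which encodes a methionine salvage enzyme and is often deleted with the locus in human tumours, gave 11.84 ± 0.01 in Net shRNA, 12.11 ± 0.04 in Sap-1 shRNA and 11.67 ± 0.04 in control cells (SD, n = 3 each). It rose by 0.17 in Net shRNA (SE 0.04, adjusted p = 0.00902) and by 0.44 in Sap-1 shRNA cells (SE 0.04, adjusted p = 9.1e-06). Its array levels did not overlap between any of the groups.

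**Figure D3:**
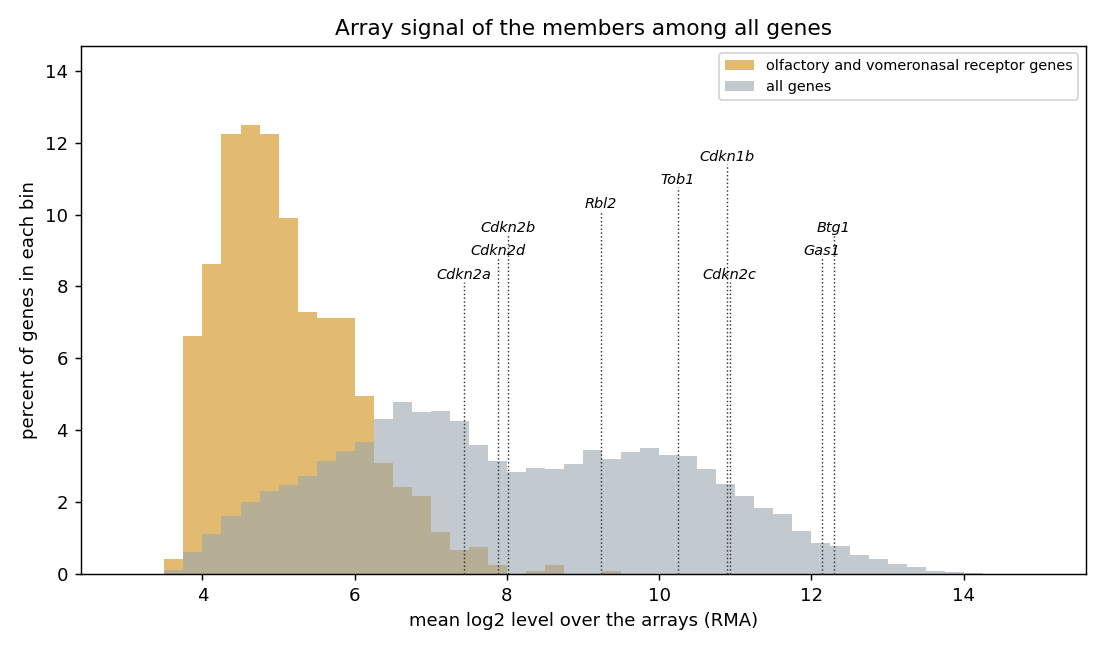
Share of genes per 0.25 bin of mean log2 level over the 9 arrays, for olfactory and vomeronasal receptor genes and for all genes, with the 9 genes marked by dotted lines. Cdkn2a, Cdkn2d and Cdkn2b lie between 7.44 and 8.01, and the other 6 genes between 9.23 and 12.29; probe affinity differs, so the axis does not rank RNA amounts.

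Cdkn1b, the gene of p27, had slightly lower means in both knockdown lines, without passing the test. Its level was 10.79, 10.85 and 10.88 on the Net shRNA arrays, 10.81, 10.86 and 10.91 on the Sap-1 shRNA arrays and 10.99, 11.07 and 10.86 on the control arrays. The lowest control array lay within the range of both knockdown groups. The change was -0.13 in Net shRNA (95% interval -0.26 to -0.01, adjusted p = 0.126) and -0.12 in Sap-1 shRNA cells (-0.24 to 0.01, adjusted p = 0.169). Without control replicate 3 both passed (-0.19, adjusted p = 0.0269, and -0.17, adjusted p = 0.0338), so 1 control array decides these calls.

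A dimmer probe set of Cdkn1b, at 6.73 to 6.93 over the arrays, lay at 0.05 with Net shRNA and -0.03 with Sap-1 shRNA. Its sign was opposite to that of the brighter probe set in Net shRNA cells, with neither called. The level of p27 protein, set largely by degradation, was not measured here.

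Rbl2 varied most within the Net shRNA group. Its level was 9.17, 9.40 and 9.38 on the Net shRNA arrays, 9.17, 9.19 and 9.25 on the Sap-1 shRNA arrays and 9.13, 9.23 and 9.20 on the control arrays. Net shRNA replicate 1 lay among the other groups' arrays and the other two above them. The change was 0.13 in Net shRNA (95% interval -0.002 to 0.26, adjusted p = 0.159) and 0.02 in Sap-1 shRNA cells (-0.11 to 0.15, adjusted p = 0.852). Without Net shRNA replicate 1 it passed (0.20, adjusted p = 0.0106), as did the difference from Sap-1 shRNA cells (0.18, adjusted p = 0.015). The 50 nearest expressed genes of Rbl2 moved by 0.19 in Net shRNA cells, and with their median taken off Rbl2 lay at -0.06 there.

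Gas1 fell in Sap-1 shRNA cells only by these tests, and the difference between the lines was tested directly. Its level was 12.24, 12.37 and 12.27 on the Net shRNA arrays, 11.80, 11.93 and 11.86 on the Sap-1 shRNA arrays and 12.23, 12.27 and 12.28 on the control arrays. All Sap-1 shRNA arrays lay below all others, and Net shRNA and control arrays overlapped. Gas1 fell by 0.39 in Sap-1 shRNA cells (SE 0.05, adjusted p = 8.66e-05), to 0.761 times the control level. Net shRNA minus Sap-1 shRNA was 0.43 (SE 0.05, adjusted p = 4.94e-05), or 1.35-fold, and Net shRNA minus control 0.03 (95% interval -0.07 to 0.14, adjusted p = 0.719).

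Tob1 rose in both knockdown lines, more in Sap-1 shRNA cells. Its level was 10.23, 10.25 and 10.24 on the Net shRNA arrays, 10.42, 10.45 and 10.54 on the Sap-1 shRNA arrays and 9.94, 10.09 and 10.01 on the control arrays. The 3 groups did not overlap, in the order control, Net shRNA, Sap-1 shRNA from low to high. The rise was 0.23 in Net shRNA (SE 0.05, adjusted p = 0.00562), or 1.17-fold, and 0.46 in Sap-1 shRNA cells (SE 0.05, adjusted p = 2.87e-05), or 1.38-fold. Net shRNA minus Sap-1 shRNA was -0.23 (SE 0.05, adjusted p = 0.00356).

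The neighbours of Tob1 on its chromosome had a median change of 0.10 with Net shRNA and 0.03 with Sap-1 shRNA. With their median taken off, the rise of Tob1 in Net shRNA cells was 0.13 and no longer passed (adjusted p = 0.0786).

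Btg1 was the steadiest of the 9 genes, with a range of 0.12 over the 9 arrays. Its level was 12.29, 12.32 and 12.32 on the Net shRNA arrays, 12.30, 12.34 and 12.30 on the Sap-1 shRNA arrays and 12.21, 12.30 and 12.28 on the control arrays. The groups overlapped in every comparison, and the change was 0.05 with Net shRNA and 0.05 with Sap-1 shRNA (95% interval -0.04 to 0.13 for each, adjusted p = 0.475 and 0.426). The neighbours of Btg1 moved by -0.08 in Net shRNA cells, and with their median taken off Btg1 passed there, at 0.13 (adjusted p = 0.0489).

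Genes with the most similar pattern were named for the 4 called members, by Pearson correlation of log2 level over the 9 arrays among 9711 genes. These are the genes brighter than the median, without receptor genes and without predicted or unnamed genes whose symbols begin with Gm or LOC or end in Rik. With 3 groups of 3 arrays such a correlation mostly follows the group means, so it describes likeness only. For Cdkn2c they were the adhesion receptor gene Adgrg6 (r = 0.997), the Wnt antagonist gene Sfrp1 (r = 0.996) and the chaperone gene Dnajb1 (r = 0.995). The Adgrg6 mean in Sap-1 shRNA cells, 5.98, lies below the 6.79 of the receptor background's 95th percentile, beside 9.43 in Net shRNA and 8.47 in control cells, and it passed the brightness filter through those groups. For Gas1 they were Slc43a3, Tiparp and Mov10 (r = 0.989 to 0.993), for Tob1 Mxra7, Ifit2 and Cfap20dc (r = 0.992 to 0.994), and for the dimmer Cdkn2d Btbd11, Srebf1 and Dcp1b (r = 0.960 to 0.979).

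Lists of related genes are given as counts beside the share of all genes called, since more genes were higher than lower in both lines. The lists were chosen with earlier results of these data known, so their counts describe and do not test. Median changes over all genes were -0.002 with Net shRNA and -0.02 with Sap-1 shRNA. Of 15 measured cyclins, kinases and their assembly and activating factors, which these inhibitors bind or act beside, 5 rose and 1 fell in Net shRNA cells, where 13.4% of all genes rose and 10.2% fell, with a median change of 0.12. In Sap-1 shRNA cells 8 rose and 0 fell (1 lower at an unadjusted p under 0.05), where 15.8% of all genes rose and 13.9% fell, with a median of 0.20. Ccnd1, the gene of cyclin D1, rose by 0.78 in Sap-1 shRNA cells (SE 0.04, adjusted p = 9.75e-08) and fell by 0.23 in Net shRNA cells (SE 0.04, adjusted p = 0.00161), the reverse of Cdkn2c in both lines. Its means were 11.45 with Net shRNA, 12.46 with Sap-1 shRNA and 11.68 in control cells. Ccne2, the gene of cyclin E2, rose by 0.70 with Net shRNA and by 1.13 with Sap-1 shRNA (SE 0.09 each, adjusted p = 0.000216 and 3.52e-06). Cdk6, a partner of D cyclins, rose by 0.27 in Net shRNA cells (SE 0.04, adjusted p = 0.000401) and lay at -0.10 in Sap-1 shRNA cells (adjusted p = 0.0789). Ccnh, a subunit of the CDK-activating kinase, rose by 0.41 in Net shRNA cells (SE 0.06, adjusted p = 0.000295). Ccnd2, a D cyclin gene, rose by 0.28 in Sap-1 shRNA cells (SE 0.04, adjusted p = 0.000369).

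Among genes that handle p27, Skp2, the F-box subunit that marks p27 for degradation, rose by 0.39 in Net shRNA (SE 0.04, adjusted p = 7e-05) and by 0.25 in Sap-1 shRNA cells (SE 0.04, adjusted p = 0.001). Its cofactor gene Cks1b rose by 0.18 in Net shRNA cells (adjusted p = 0.00637) and lay at -0.07 in Sap-1 shRNA cells. Ubac1, of the ubiquitin ligase KPC, rose by 0.28 in Net shRNA cells (adjusted p = 0.000919). Over the list of 15 measured genes, 3 rose and 0 fell in Net shRNA cells (1 lower at an unadjusted p under 0.05), a share near the 23.6% of all genes called either way. In Sap-1 shRNA cells 4 rose and 2 fell, against 29.7% of all genes either way, and the medians were 0.06 with Net shRNA and 0.09 with Sap-1 shRNA.

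Among other inhibitors and inhibitor-like genes, Ccng1, a cyclin G gene that p53 induces, rose by 0.41 in Net shRNA and by 0.48 in Sap-1 shRNA cells (SE 0.05 each, adjusted p = 0.000114 and 1.94e-05). Cdkn3, a CDK phosphatase gene expressed in dividing cells, rose by 0.42 in Net shRNA cells (SE 0.08, adjusted p = 0.00302). In Sap-1 shRNA cells Cdkn3 lay at 0.24, just short of a call (adjusted p = 0.05). Net shRNA minus Sap-1 shRNA was 0.18 for Cdkn3 and was not called (adjusted p = 0.131). Of the 5 measured genes of this list 2 rose with Net shRNA and 1 with Sap-1 shRNA, and 0 fell in either, also at an unadjusted p under 0.05, where 13.4% and 15.8% of all genes rose. Cdkn1a, the gene of p21, was not analysed here.

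Of 19 pocket protein, E2F and DREAM genes, the partners of p130, 5 rose and 2 fell in Net shRNA cells, where 13.4% of all genes rose and 10.2% fell. For Sap-1 shRNA cells the counts were 7 and 3, where 15.8% of all genes rose and 13.9% fell, and the median was 0.12 in each line. The pocket protein gene Rb1 rose by 0.76 in Net shRNA (SE 0.06, adjusted p = 3.71e-06) and by 0.58 in Sap-1 shRNA cells (SE 0.06, adjusted p = 1.65e-05). E2f6, a repressor E2F gene, rose by 0.24 in Net shRNA (SE 0.07, adjusted p = 0.0285) and fell by 0.55 in Sap-1 shRNA cells (SE 0.07, adjusted p = 0.0001), with Net shRNA minus Sap-1 shRNA at 0.79 (adjusted p = 6.75e-06). Its means of 6.95, 6.16 and 6.71 in Net shRNA, Sap-1 shRNA and control cells lie near the 6.79 of the receptor background's 95th percentile. E2f5, whose product pairs with p130, differed between the lines by 0.42 (adjusted p = 0.000309), and E2f3 rose by 0.57 in Sap-1 shRNA cells (SE 0.08, adjusted p = 0.000324).

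Relatives of Btg1 and Tob1 and the CCR4-NOT subunits had 3 of 16 members higher and 3 lower in Net shRNA, and 3 higher and 1 lower in Sap-1 shRNA cells. All genes were called either way at 23.6% with Net shRNA and 29.7% with Sap-1 shRNA, and the Sap-1 shRNA count lies near that share. Cnot7, the deadenylase that BTG and TOB proteins bind, rose by 0.35 in Net shRNA (SE 0.04, adjusted p = 0.000143) and by 0.13 in Sap-1 shRNA cells (SE 0.04, adjusted p = 0.0437). Cnot6l, another deadenylase subunit, fell by 0.37 in Net shRNA and by 0.34 in Sap-1 shRNA cells (SE 0.05 each, adjusted p = 0.000503 and 0.000683). Btg2 passed between the knockdown lines only, at 0.22 for Net shRNA minus Sap-1 shRNA (adjusted p = 0.00248).

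Of 11 other growth arrest and serum deprivation genes 4 rose and 3 fell in Net shRNA cells, against 23.6% of all genes called either way. With Sap-1 shRNA 2 rose and 4 fell, against 29.7% of all genes, and the medians were -0.04 with Net shRNA and -0.07 with Sap-1 shRNA. Gas6, the gene of a ligand for the receptors TYRO3, AXL and MER, rose by 1.27 in Net shRNA (SE 0.06, adjusted p = 9.37e-08) and fell by 0.45 in Sap-1 shRNA cells (SE 0.06, adjusted p = 0.000138). Its means were 11.37 in Net shRNA, 9.65 in Sap-1 shRNA and 10.10 in control cells. Gas7 fell by 0.31 in Sap-1 shRNA cells (adjusted p = 9.2e-05), Gas2 fell by 0.32 in Net shRNA cells (adjusted p = 0.00117), and Cavin2, first described as a serum deprivation response gene, rose by 0.75 in Sap-1 shRNA cells (adjusted p = 5.32e-06). Dcn, which encodes the proteoglycan decorin, fell by 0.24 in Net shRNA and by 0.66 in Sap-1 shRNA cells.

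The Hedgehog pathway, in which GAS1 acts as a co-receptor, had 1 of 14 genes higher and 3 lower in Net shRNA, and 1 higher and 6 lower in Sap-1 shRNA cells. The Net shRNA count lies near the 23.6% of all genes called either way, and with Sap-1 shRNA 15.8% of all genes were higher and 13.9% lower. Boc, another co-receptor gene, rose by 0.47 in Net shRNA and fell by 0.50 in Sap-1 shRNA cells (SE 0.06 each, adjusted p = 0.000237 and 0.000103). Ptch1, the receptor gene that the pathway induces, rose by 0.63 in Sap-1 shRNA cells (SE 0.06, adjusted p = 8.97e-06). In the same list Gli1 and Hhip were not called in Sap-1 shRNA cells, at -0.115 and -0.08 (adjusted p = 0.22 and 0.326). Hhip, with a mean of 5.29, lay below the receptor background's 95th percentile. Gli2, a transcription factor of the pathway, fell by 0.66 in Net shRNA and by 0.51 in Sap-1 shRNA cells. Gfra1, a relative of GAS1 that binds GDNF, fell by 0.42 in Net shRNA and by 0.77 in Sap-1 shRNA cells.

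FOXO factors, which induce Cdkn1b and Rbl2 in starved cells, and other starvation-linked genes had 5 of 19 higher and 3 lower in Net shRNA, and 5 higher and 9 lower in Sap-1 shRNA cells, with a median of -0.19 there. The shares of all genes were 13.4% higher and 10.2% lower with Net shRNA, and 15.8% higher and 13.9% lower with Sap-1 shRNA. Txnip, an inhibitor of thioredoxin and glucose uptake, fell by 1.76 in Sap-1 shRNA cells (SE 0.13, adjusted p = 1.86e-06). In Net shRNA cells Txnip fell by 0.40 (SE 0.13, adjusted p = 0.0473), with arrays that overlapped those of control. Sesn3, a sestrin gene that FOXO factors induce, rose by 0.715 in Net shRNA (SE 0.08, adjusted p = 6.83e-05) and fell by 0.91 in Sap-1 shRNA cells (SE 0.08, adjusted p = 5.57e-06), and Irs2 fell by 0.52 there. Bcl6, a repressor gene, rose by 0.72 in Sap-1 shRNA cells (SE 0.05, adjusted p = 1.5e-06).

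Polycomb and other regulators of the INK4-ARF locus had 4 of 19 higher and 3 lower in Net shRNA, and 5 higher and 4 lower in Sap-1 shRNA cells, beside 23.6% and 29.7% of all genes called either way. Eed, a subunit of Polycomb repressive complex 2, rose by 0.60 in Net shRNA and by 0.49 in Sap-1 shRNA cells (SE 0.07 each, adjusted p = 8.11e-05 and 0.000194). Tbx3, a repressor of Arf, fell by 0.74 in Sap-1 shRNA cells (SE 0.06, adjusted p = 3.77e-06), and the Polycomb subunit gene Rnf2 fell by 0.16 in Net shRNA and by 0.36 in Sap-1 shRNA cells. Among ARF partners Mdm2, the p53 ligase gene, rose by 0.37 with Net shRNA and by 0.50 with Sap-1 shRNA. Mdm4 fell by 0.28 and by 0.49 in the same order, and Npm1 was not called (0.002 and 0.03). Near the locus, Elavl2 fell by 0.45 with Net shRNA and rose by 0.27 with Sap-1 shRNA (adjusted p = 5.24e-05 and 0.00107). Dmrta1, also near it, was not called (0.04 and 0.01). Of the 6 measured ARF partners and genes beside the locus, Mtap included, 2 rose and 2 fell with Net shRNA. The Sap-1 shRNA counts were 3 and 1, and the shares of all genes are those given above.

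Proliferation genes were read beside the inhibitors. Of 17 such genes 12 rose with Net shRNA and 11 with Sap-1 shRNA, 0 fell in either (0 and 1 lower at an unadjusted p under 0.05), and the medians were 0.35 and 0.25. Of all genes 13.4% rose with Net shRNA and 15.8% with Sap-1 shRNA. Between the knockdown lines the median was 0.00, with 6 higher in Net shRNA and 2 higher in Sap-1 shRNA cells. The shares of all genes there were 14.2% and 13.3%. Cdt1 and Cdc6, whose products license DNA replication, rose by 0.65 and 0.60 in Net shRNA and by 0.69 and 0.69 in Sap-1 shRNA cells (SE 0.05 each). For Myc the difference, Net shRNA minus Sap-1 shRNA, was 0.25 (SE 0.05, adjusted p = 0.00164).

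**Figure D4:**
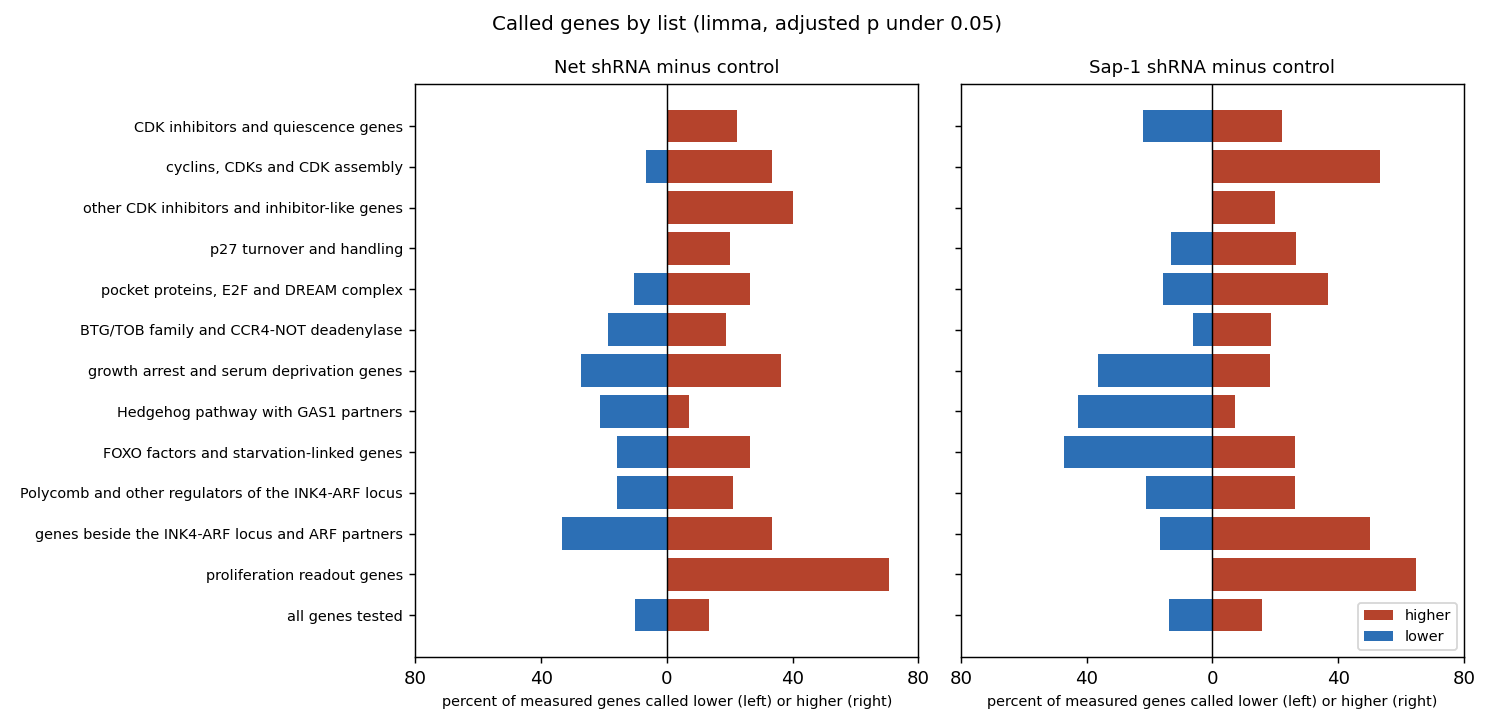
Percent of measured genes of each list called higher (right) or lower (left) than control in Net shRNA cells (left panel) and Sap-1 shRNA cells (right panel), with the 9 genes on top and all genes tested at the bottom. Proliferation genes reach 12 of 17 and 11 of 17 higher, and the FOXO and starvation-linked list has 9 of 19 lower in Sap-1 shRNA cells.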

How the data were processed

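Total RNA from 9 cultures was hybridised to 1 array each, 3 per group. The deposited log2 values, 1 per probe set and array for 28815 probe sets, are RMA values. The submitters' processing notes name RMA and Expression Console as what the authors used, and version, settings and genome build are not given in the sources used here. RMA includes a normalization between arrays that can take out changes most genes share, and it compresses changes of dim genes. The deposited distributions are close but not identical, with array medians of 7.47 to 7.54.

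Names came from the platform's annotation, with symbols updated by Entrez ID in RefSeq's GRCm38.p6 gene table, where 21689 of the probe sets' IDs were found. Of the probe sets 21780 had 1 symbol, 1605 had several and 5430 had none. The highest mean probe set was used for the 998 genes with several, leaving 19935 genes. Coordinates and promoter sequences are RefSeq's, and all 9 members matched by symbol. Protein sequences were not used here.

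All comparisons came from limma 3.58.1 (R 4.3.3, lmFit and eBayes without trend) in 1 fit over 9 arrays, 6 residual and 4.72 prior degrees of freedom, with Benjamini-Hochberg adjustment over all genes. The members and lists were chosen with earlier results of these data known. Named were the members, Elk3, Elk4, genes of the lists, and 3 genes per called member by likeness. List genes came from the up to 4 called genes with the smallest adjusted p per list and comparison. Not all of those are printed, and Gli1, Hhip, Npm1 and Dmrta1 were added as genes not called against control. The scripts were tested on simulated data. Other settings were the replicate block, trend and robust variances, 6 arrays only, 3 normalizations, 2 filters, other probe set rules, array weights, 2 thresholds, the neighbours' median of 50 genes taken off, and each array left out. No label says that a replicate number marks a shared day, so the numbers were not taken as pairs. Same-numbered arrays deviated from their group means with correlations of -0.11 to 0.36, and those of replicate 1 were 0.17 to 0.36.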

Additional observations from a re-analysis of the deposited data

How the results depend on the processing

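Over 9 genes and 3 comparisons, 12 of 27 changes kept their side of the threshold under all 23 other settings they could be tested in, and no called change reversed. Of these 12 only the difference of Cdkn2c between the knockdown lines was a called change, and the others were not called. With a threshold of at least 1.5-fold the genes called were 0 in Net shRNA against control, 0 in Sap-1 shRNA against control and 1 between the knockdown lines (Cdkn2c), since every other change lay below that size. With the replicate number as a block the counts of called genes were 2, 4 and 4, as without it, and this block changed no call of the 9 genes. Leaving out each array in turn gave 2 to 3 called genes in Net shRNA against control, 3 to 5 in Sap-1 shRNA against control and 3 to 4 between the knockdown lines. Array weights called Rbl2 in Net shRNA cells as well (0.15, adjusted p = 0.0338) and between the lines (0.16, adjusted p = 0.0209). With the 6 arrays compared alone, Cdkn2d was not called between the lines (adjusted p = 0.068), and at an adjusted p under 0.01 it was called neither there nor against control. Taking off the median of the neighbours called Btg1 between the lines (0.15, adjusted p = 0.0184). Cdkn2a could not be tested with genes below the median level left out. The causes of these shifts were not tested. With each array centred on its median, all genes called between the lines were 2320 higher and 3196 lower in Net shRNA cells, against 2823 and 2657 as deposited. With no detection calls, signal and unspecific binding cannot be told apart for Cdkn2a. It lay above the receptor genes' 95th percentile on 9 of 9 arrays, as did Cdkn2b and Cdkn2d, so lying above that percentile does not by itself show expression.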
